A study of Homo sapiens with 6 samples.

Results

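Spliceosome and hnRNP genes were taken as the protein-coding genes whose symbols belong to the SRSF, HNRNP, SNRP, SF3A and SF3B, U2AF and PRPF families of the RefSeq GRCh38.p14 gene table. There were 74 of them among 20037 protein-coding genes on chromosomes 1 to 22, X and Y. They comprised 12 SRSF, 26 HNRNP, 12 SNRP, 9 SF3A or SF3B, 3 U2AF and 12 PRPF genes. The rule used gene names and no measured value, but the list was chosen with earlier results of these data known.

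MYT1L is a zinc-finger transcription factor of neurons, known mainly for repressing genes of other cell lineages. Its occupancy was measured by CUT&RUN, in which an antibody brings a nuclease to a chromatin protein and the fragments cut free nearby are sequenced. All libraries came from the human embryonic stem cell line H1 (titled WT) at day 30 and differed in the antibody: 4 libraries were made with anti-MYT1L and 2 with IgG, the negative control. The design text names the cells as stem cell-derived cortical interneurons, whereas each sample's cell type is given as embryonic stem cells. Peaks carry no expression level, so the cell type could not be checked with markers. Nothing in the labels says that the libraries came from separate cultures, so the spread between them may be technical.

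The spliceosome removes introns from pre-mRNA and is built from small nuclear ribonucleoproteins (snRNPs), each a small RNA with a ring of Sm proteins and particle-specific proteins. SR proteins bind exonic enhancers and recruit the machinery to nearby splice sites, whereas hnRNP proteins coat nascent transcripts and often keep splice sites from being used. Neurons use alternative splicing more than most tissues, but the genes of the core machinery are transcribed in essentially all cells.

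The deposited lists held 27926, 12310, 18966 and 30086 peaks on these chromosomes in MYT1L replicates 1 to 4, and 976 and 998 in IgG replicates 1 and 2. Read totals were not analysed here. The background estimated from the peaks was 5.99, 2.25, 5.19 and 4.77 fragments per kb in the MYT1L libraries and 1.55 and 0.95 in the IgG libraries, so the controls were shallower. The MYT1L replicate numbers used here are those of the sample titles; the numbers within the peak names are each 1 higher.

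Reproducible MYT1L occupancy was present at 49 of the 74 spliceosome and hnRNP genes (66.2%), against 48.0% of all protein-coding genes. A region counted as reproducible when at least 3 of the 4 MYT1L lists had an overlapping peak there and neither IgG list did, and it was assigned to a gene when it touched the body or 5 kb on either side. The occupied genes included 11 of 12 SR protein genes, 16 of 26 hnRNP genes, 9 of 12 SNRP genes, 5 of 9 SF3 genes, 2 of 3 U2AF genes and 6 of 12 PRPF genes. Peaks lay mostly at promoters: 48 genes (64.9%) had a reproducible region with a summit within 1 kb of a transcription start, against 39.6% of all genes. A region shared by all 4 MYT1L libraries was present at 28 genes (37.8%, against 25.3% of all genes), of which 26 had one at a start (35.1%, against 20.6%). Another 5 genes (6.76%) had no MYT1L peak in any library, against 15.9% of all genes. These are counts over a chosen list and carry no test. For a single gene, presence in 4 libraries and absence in 2 gives 15 arrangements, so the smallest p an exact permutation test can give is 0.0667 and no gene could be called on its own.

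**Figure D1:**
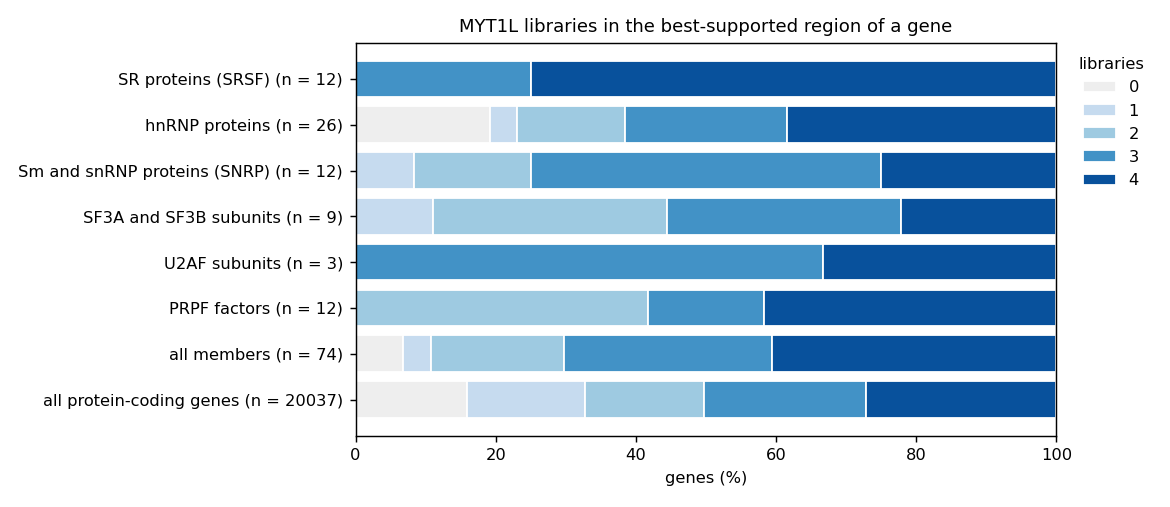
Share of the genes of each family (horizontal axis, percent of genes) by the number of MYT1L libraries that share the gene's best-supported region, IgG-overlapping regions included. All 12 SR protein genes and all 3 U2AF genes are in the classes of 3 or 4 libraries. The 5 genes without a peak are all hnRNP genes.

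Promoter sequences are given for 4 genes with MYT1L peaks at or next to them and 1 gene without. RefSeq lists a promoter for 65 of the 74 genes, as 300 bases from 250 before to 50 after the transcription start, in build GRCh38.p14. The promoters printed here were picked after their values were seen, for the following reasons. Both SRSF11 promoters are shown because a MYT1L peak overlapped each, in part or in full, in all 4 libraries, the internal one at chr1:70221130-70221429 (plus strand) and the outermost at chr1:70205446-70205745 (plus strand). PRPF38B, at chr1:108692060-108692359 (plus strand), had the highest mean fold enrichment among the best-supported regions of the list. SNRPA1, at chr15:101295199-101295498 (minus strand), and SRSF3, at chr6:36594112-36594411 (plus strand), have different promoter elements. HNRNPCL1, at chr1:12848671-12848970 (minus strand), is 1 of the genes without a MYT1L peak. Sequences read 5′ to 3′ on the gene's strand. Capitals mark matches on either strand to any of 5 motifs. AAGTT holds the core letters of the element that zinc fingers of the MYT1 family bind. Its longer form is AAAGTTT, which by construction is also a match to the core. The letters CCGGAAG are those of ETS factors. YY1 binds the letters AAGATGGCG, whose reverse complement is also marked. The TATA box is TATAAA.
SRSF11 internal start: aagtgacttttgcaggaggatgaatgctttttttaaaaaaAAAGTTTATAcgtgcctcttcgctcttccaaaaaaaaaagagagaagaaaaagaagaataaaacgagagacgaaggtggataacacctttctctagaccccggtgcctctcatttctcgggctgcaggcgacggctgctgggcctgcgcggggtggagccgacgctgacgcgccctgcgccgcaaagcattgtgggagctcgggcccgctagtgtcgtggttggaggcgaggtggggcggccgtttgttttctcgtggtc
SRSF11 outermost start: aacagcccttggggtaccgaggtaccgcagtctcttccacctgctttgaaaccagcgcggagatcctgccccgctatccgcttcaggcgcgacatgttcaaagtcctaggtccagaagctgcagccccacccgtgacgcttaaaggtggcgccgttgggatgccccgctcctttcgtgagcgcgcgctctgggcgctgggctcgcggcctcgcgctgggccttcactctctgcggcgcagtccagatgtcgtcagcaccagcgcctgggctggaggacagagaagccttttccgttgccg
PRPF38B: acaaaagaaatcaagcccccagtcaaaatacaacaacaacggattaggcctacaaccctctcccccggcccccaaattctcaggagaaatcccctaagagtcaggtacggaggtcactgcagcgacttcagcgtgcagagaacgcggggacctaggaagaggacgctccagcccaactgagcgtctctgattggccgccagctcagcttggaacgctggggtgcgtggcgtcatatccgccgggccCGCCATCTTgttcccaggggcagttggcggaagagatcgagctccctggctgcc
SNRPA1: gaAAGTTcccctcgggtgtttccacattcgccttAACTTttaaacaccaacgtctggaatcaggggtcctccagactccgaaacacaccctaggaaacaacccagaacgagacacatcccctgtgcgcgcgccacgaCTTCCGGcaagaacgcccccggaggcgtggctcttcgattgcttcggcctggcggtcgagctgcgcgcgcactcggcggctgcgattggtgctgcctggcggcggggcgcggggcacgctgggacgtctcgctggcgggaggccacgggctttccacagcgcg
SRSF3: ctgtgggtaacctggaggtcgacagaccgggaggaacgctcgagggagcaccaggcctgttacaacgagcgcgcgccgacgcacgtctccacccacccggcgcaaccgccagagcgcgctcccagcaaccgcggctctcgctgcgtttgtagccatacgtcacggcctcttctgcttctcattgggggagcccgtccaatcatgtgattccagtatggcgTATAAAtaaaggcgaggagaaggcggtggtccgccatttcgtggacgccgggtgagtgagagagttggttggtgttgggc
HNRNPCL1: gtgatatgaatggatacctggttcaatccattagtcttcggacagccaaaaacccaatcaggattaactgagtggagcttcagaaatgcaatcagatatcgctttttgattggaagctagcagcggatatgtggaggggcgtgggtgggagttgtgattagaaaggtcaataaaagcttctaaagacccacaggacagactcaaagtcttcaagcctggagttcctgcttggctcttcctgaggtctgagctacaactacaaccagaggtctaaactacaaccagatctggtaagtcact

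In the internal SRSF11 promoter AAAGTTT begins 210 bases before the start, and its last letters overlap a TATAAA match on the opposite strand. The MYT1L summits there lay 66, 90, 86 and 99 bases after the start in replicates 1 to 4, downstream of the printed window. PRPF38B has the YY1 letters on the opposite strand, beginning 4 bases before its start. SNRPA1 has CCGGAAG on the opposite strand, beginning 113 bases before the start, and AAGTT at 248 and, on the opposite strand, 216 bases before it. Its MYT1L summits lay 68 and 6 bases after, 23 before and 183 after the start in replicates 1 to 4. SRSF3 has TATAAA beginning 30 bases before the start. HNRNPCL1 and the outermost SRSF11 promoter hold none of the letters searched for and marked.

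The AAGTT letters were no more frequent at these promoters than elsewhere. They were present, on either strand, in 19 of 65 promoters (29.2%; the outermost start of each gene) and in 29.4% of 15843 promoters of all genes. They were in 13 of the 45 with a reproducible region at any listed start of the gene and in 6 of the 20 without. That region need not lie at the outermost promoter, which was the one read, and at HNRNPUL1 it did not. The split therefore does not compare occupied with unoccupied promoters. AAAGTTT was in 1 promoter, that of HNRNPUL1 (1.54%, against 3.55%). It was in the internal promoter of SRSF11 too, which is not among those 65. CCGGAAG was in 21 (32.3%, against 14.2% of all promoters), in 13 of the 45 with a region and 8 of the 20 without. CCAAT, the letters bound by NF-Y, was in 44.6% against 36.4%, and GGGCGGGG, a GC box, in 33.8% against 31.3%. AAGATGGCG was in 4.62% against 2.69%, TATAAA in 7.69% against 9.75%, and the palindrome of NRF1 in none of the 65 against 1.77%. A match is a run of letters and not a measured binding site. The median GC content was 62.0% against 62.7%, and the median number of CpG dinucleotides was 28 against 22.

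SR protein genes had the largest share with a reproducible region among the families (91.7%, against 48.0% of all genes). Including IgG-overlapping regions, all 12 had a region shared by 3 or 4 MYT1L libraries, as did all 3 U2AF genes. In 9 of the 12 the best-supported region was shared by all 4, against 27.1% of all genes. Without IgG overlap, 8 had such a region (66.7%, against 25.3%), 7 of them at a start (58.3%, against 20.6%). The median over the best-supported regions of the 11 reproducible ones was 6.92-fold (range 5.59 to 9.09). The 9.09 belongs to a region downstream of SRSF10, described below. Fold here is the authors' fold enrichment of a peak summit over local background, a value of 1 peak in 1 list; means over libraries describe separately called lists. SRSF1, the founding SR protein, had fold enrichments of 6.16, 7.06, 6.89 and 7.59 in replicates 1 to 4 (mean 6.92 ± 0.589, SD, n = 4) in a region at chr17:58006639-58007827 around its start. These 4 values were close together, and no IgG peak was listed in the gene's window. SRSF6, which binds exonic enhancers, had 5.72, 6.53, 5.29 and 6.14 (mean 5.92 ± 0.534), also within a narrow range, but its summits lay up to 857 bp apart. SRSF2, the protein first known as SC35, had 6.26, 5.94, 4.57 and 7.53 (mean 6.07 ± 1.22), with replicate 4 highest. SRSF2 has no listed start, its summits spanned 738 bp, and MFSD11 also starts within 1 kb of the replicate 4 summit.

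SRSF7, an SR protein with a zinc knuckle, had 8.16, 4.86, 6.23 and 12.5 (mean 7.93 ± 3.32), behind which lay an estimated 22, 7, 13 and 51 fragments at the summit. SRSF8, a gene derived from a retroposed SRSF2 copy, had 6.80, 6.11, 6.34 and 14.5 (mean 8.44 ± 4.05). Replicate 4 was highest at both, and at SRSF8 the other 3 libraries were close together. SRSF3 was listed in replicates 1, 2 and 4 at 5.48-, 4.86- and 6.42-fold (mean 5.59 ± 0.787, n = 3) and had no peak there in replicate 3.

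SRSF11 had regions at both of its promoters printed above, each in all 4 libraries. At the internal start the values were 6.41, 4.93, 7.31 and 15.7 (mean 8.60 ± 4.86). At the outermost start they were 4.55, 7.59, 4.39 and 7.42 (mean 5.99 ± 1.75), and LRRC40 also starts within 1 kb of the replicate 2 summit there. The internal start was higher in replicates 1, 3 and 4 and lower in replicate 2, and the ranges overlapped. SRSF10, a splicing repressor activated by dephosphorylation, had its best-supported region 20367 bases downstream of its start (replicate 4 summit), at chr1:23959182-23960182, with 8.43, 10.9, 6.82 and 10.2 (mean 9.09 ± 1.83). PNRC2, another gene, starts within 1 kb of the replicate 2 summit there, so the peak cannot be assigned to SRSF10. At its own start SRSF10 was listed at 5.04-fold in replicate 1, 9.47-fold in replicate 3 and 15.03-fold in replicate 4 (mean 9.84 ± 5.01, n = 3).

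Among the hnRNP genes, 10 of 26 held a region shared by all 4 libraries (38.5%, against 25.3% of all genes). Another 5 of the 26 had no peak, a share near the 15.9% of all genes. HNRNPA0, an intronless member of the A/B group, had the highest mean among the hnRNP genes, at chr5:137753362-137755033, with 9.95, 6.37, 7.07 and 12.2 (mean 8.91 ± 2.70). HNRNPK, which binds C-rich RNA, had 6.74, 7.01, 5.35 and 7.98 (mean 6.77 ± 1.09), and HNRNPA2B1, an A/B protein that packages nascent RNA, had 5.66, 7.07, 5.19 and 6.18 (mean 6.03 ± 0.804). The folds of each gene were close across libraries, but not at 1 site. At HNRNPA2B1 the summits lay 474 and 457 bases after the start in replicates 1 and 4 and at −765 and −893 in replicates 2 and 3. At HNRNPK the summits spanned 763 bp. RMI1 also starts within 1 kb of the replicate 4 summit at HNRNPK, and CBX3 within 1 kb of the replicate 2 summit at HNRNPA2B1.

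Support was partial at other abundant hnRNP genes. HNRNPC, which binds uridine tracts, was listed at 4.55-, 6.14- and 7.83-fold in replicates 1, 3 and 4 (mean 6.17 ± 1.64, n = 3). HNRNPH1, which binds runs of G, was listed at 5.42-, 6.19- and 7.44-fold in replicates 1, 2 and 4 (mean 6.35 ± 1.02, n = 3). HNRNPU, a nuclear matrix-associated protein, was listed in replicates 1, 3 and 4 at 7.37-, 5.70- and 8.73-fold (mean 7.27 ± 1.52, n = 3). That HNRNPU region had its replicate 4 summit 1261 bases inside the gene, and a second region lay at the start itself, in the same 3 libraries (mean 5.13 ± 1.17). HNRNPA1, a splicing repressor, had peaks in replicates 1 and 4 only, at 7.17- and 10.1-fold, and so did not count as reproducible. CBX5 also starts within 1 kb of the replicate 4 summit there.

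The 5 genes without a MYT1L peak were HNRNPA1L3, HNRNPCL1, HNRNPCL2, HNRNPCL3 and HNRNPCL4, copies similar to HNRNPA1 and HNRNPC. The promoters of HNRNPCL1, HNRNPCL2 and HNRNPCL4 had a GC content of 45.3%, 41.7% and 40.3% and 4, 6 and 4 CpG dinucleotides. All 3 lay below the median of the list. Reads from near-identical copies may not be placed uniquely, so an absent peak there is uncertain.

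Of the 12 SNRP genes, which encode the Sm ring and proteins of single snRNPs, 9 had a reproducible region, against 48.0% of all genes. In 3 of the 12 a region was shared by all 4 libraries, a share near the 25.3% of all genes. SNRPA, the U1-specific A protein, had 6.37, 6.02, 6.63 and 12.9 (mean 7.98 ± 3.29) in a region at chr19:40750529-40751165. ACTMAP also starts within 1 kb of the replicate 4 summit there. SNRPA1, the U2-specific A′ protein, had 6.09, 5.98, 8.01 and 10.6 (mean 7.68 ± 2.18) at chr15:101294795-101295626. Replicate 4 was highest at both SNRPA and SNRPA1. SNRPE, an Sm ring protein, was listed in replicates 1, 3 and 4 at 5.99-, 5.83- and 14.2-fold (mean 8.67 ± 4.78, n = 3).

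SNRPD1, also of the Sm ring, had 5.46-, 5.56- and 10.8-fold in replicates 1, 2 and 4 (mean 7.28 ± 3.05, n = 3). SNRPB, which encodes SmB, had 4.60-, 4.75- and 8.69-fold in the same libraries (mean 6.01 ± 2.32, n = 3). SNRPN, the imprinted neuronal counterpart of SNRPB, was listed in only replicates 2 and 4 at its best-supported region, at 4.89- and 7.85-fold. Replicate 1 had a peak nearby that did not overlap it.

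Among genes for recognition of the branch point and 3′ splice site, SF3A1, a subunit of the U2 snRNP, was listed in replicates 1, 3 and 4 at 4.93-, 7.22- and 10.7-fold (mean 7.62 ± 2.92, n = 3). The start of CCDC157 also lies within 1 kb of the replicate 4 summit there. SF3B1, which clamps the branch point and is mutated in blood cancers, was listed in only replicates 1 and 4, at 4.94- and 8.43-fold. U2AF1, which reads the AG of the 3′ splice site, had 4.58, 6.06, 8.22 and 10.7 (mean 7.39 ± 2.66). U2AF1 has a near-identical copy on chromosome 21, so read placement is uncertain there.

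U2AF2, which binds the polypyrimidine tract, was listed in replicates 1, 2 and 4 at 4.22-, 6.06- and 5.502-fold (mean 5.26 ± 0.942, n = 3). Its region overlapped a peak of IgG replicate 2 at chr19:55654121-55654337 with a fold of 6.73, above the 3 MYT1L values, so it did not count. SRSF4, an SR protein gene, had MYT1L values of 4.58, 6.69, 5.60 and 11.6 (mean 7.12 ± 3.11) and an IgG replicate 2 peak of 5.88-fold. PRPF40B, a U1-associated factor, had 4.61, 4.93, 5.56 and 9.31 (mean 6.10 ± 2.17) and an IgG replicate 2 peak of 6.35-fold. The IgG peaks rested on an estimated 12, 7 and 7 fragments. They were the only IgG peaks at the 74 genes (4.05% in IgG replicate 2, against 2.90% of all genes), and IgG replicate 1 had none (against 1.61%). Over both IgG lists, 4.16% of all genes had a peak, and 3.36% had a MYT1L region in at least 3 libraries that held one.

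PRPF genes encode factors that assemble, activate or accompany the tri-snRNP, and all 6 reproducible ones had a region at a start. PRPF38B, a spliceosome-associated factor, had 7.84, 5.38, 8.01 and 15.7 (mean 9.24 ± 4.50) at chr1:108692193-108692942, the highest mean among the best-supported regions. PRPF4, a protein of the U4/U6 particle, had 7.44, 5.15, 6.37 and 11.4 (mean 7.58 ± 2.69), and CDC26 also starts within 1 kb of the replicate 4 summit. Replicate 4 was highest at both genes.

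PRPF31, a tri-snRNP protein mutated in retinitis pigmentosa, was listed in replicates 1, 2 and 4 at 5.69-, 5.24- and 9.83-fold (mean 6.92 ± 2.53, n = 3). TFPT also starts within 1 kb of the replicate 4 summit there. PRPF8, the core protein of the U5 particle, had a region in all 4 libraries at 3.14-, 4.78-, 4.60- and 6.18-fold (mean 4.68 ± 1.24). That region is downstream of PRPF8, and RILP starts within 1 kb of its replicate 4 summit. At its own start PRPF8 was listed in replicates 2, 3 and 4 at 5.23-, 6.77- and 8.998-fold (mean 7.0 ± 1.89, n = 3). PRPF4B was not analysed here.

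**Figure D2:**
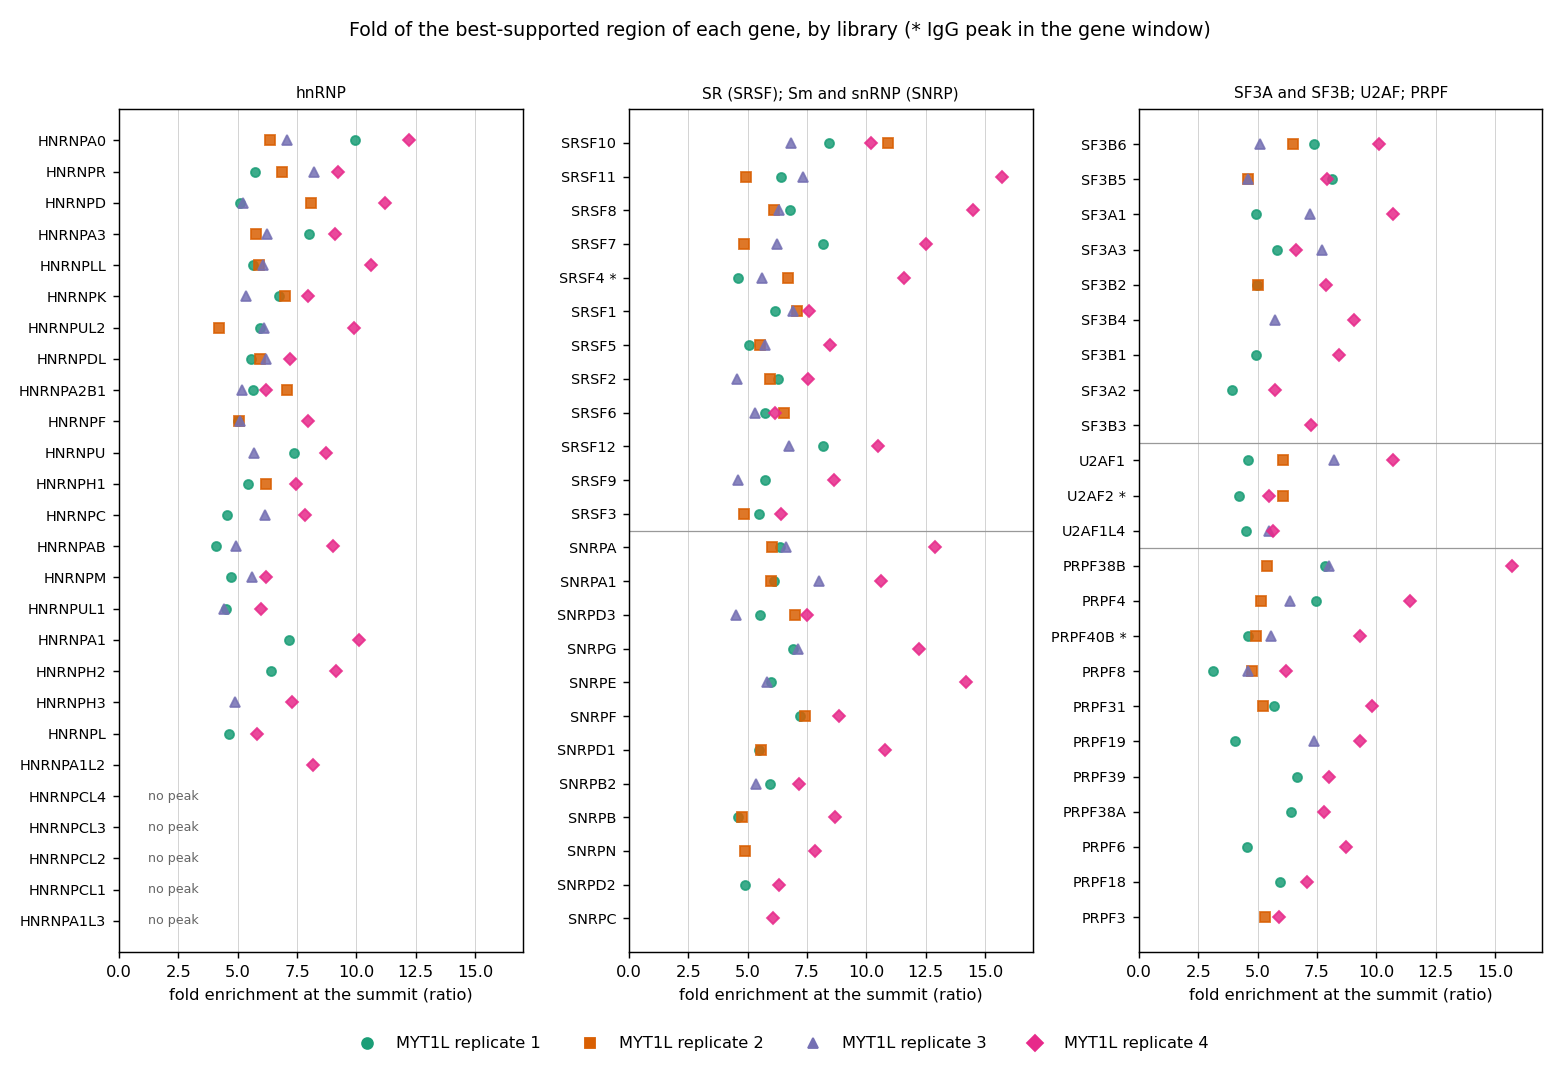
Fold enrichment (horizontal axis) of the best-supported region of 73 of the 74 genes, by MYT1L library; an asterisk marks a gene with an IgG peak. Replicate 4 has the highest value at most genes with peaks in all 4 libraries, and the asterisks are at SRSF4, U2AF2 and PRPF40B.

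The families overlapped widely in fold enrichment. The medians of the best-supported regions were 6.92 for SRSF, 6.44 for HNRNP and 7.68 for SNRP genes. They were 6.71 for SF3, 6.29 for U2AF and 7.25 for PRPF genes. The best-supported regions of all 49 genes lay between 4.68 and 9.24. At PRPF8 (4.68), SRSF10 (9.09), SF3B2 (5.96) and U2AF1L4 (5.2) this region is downstream and not at the gene's own start. The reproducible regions at their own starts had means of 7.0 at PRPF8, 9.84 at SRSF10 and 5.69 at SF3B2. The 9.84 lies above the range given, and U2AF1L4 had no reproducible region at its start. Over the 49 genes the median was 6.92 (interquartile range 6.13 to 7.68), against 6.56 (5.74 to 7.45) for the 9624 genes of all kinds with a reproducible region. The 2 interquartile ranges overlapped. The median width of the best region was 989 bp against 854 bp.

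The libraries contributed unequally. In MYT1L replicates 1 to 4, a peak was present at 64, 40, 48 and 69 of the 74 genes (86.5%, 54.1%, 64.9% and 93.2%), against 68.0%, 43.0%, 57.3% and 77.6% of all genes. The mean was 55.2 ± 13.5 genes (SD, n = 4) with MYT1L and 1.5 ± 2.12 (n = 2) with IgG. Counting summits within 1 kb of a start, the numbers were 63, 38, 46 and 69 (against 51.0%, 30.4%, 43.5% and 65.3% of all genes) with MYT1L. They were 0 and 3 with IgG (against 0.714% and 1.89%). A peak in every MYT1L library, in 1 region or several, was present at 32 of the 74 genes, against 32.8% of all genes. All 69 genes with any MYT1L peak had one of replicate 4 in the best-supported region, against 89.4% of the 16846 genes of all kinds with a region. Of the 22 best regions in 3 libraries, 14 lacked replicate 2, the shallowest MYT1L library, and 8 lacked replicate 3 (63.6% and 36.4%, against 67.1% and 23.2% of 4642 such genes of all kinds). In the 28 best regions shared by all 4 libraries without an IgG peak, replicate 4 had the highest fold in 24 (85.7%), against 74.5% of 5030 such regions genome-wide. The median folds there were 6.21, 6.0 and 6.21 in replicates 1 to 3, and replicate 4 ranged from 6.14 to 15.7.

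**Figure D3:**
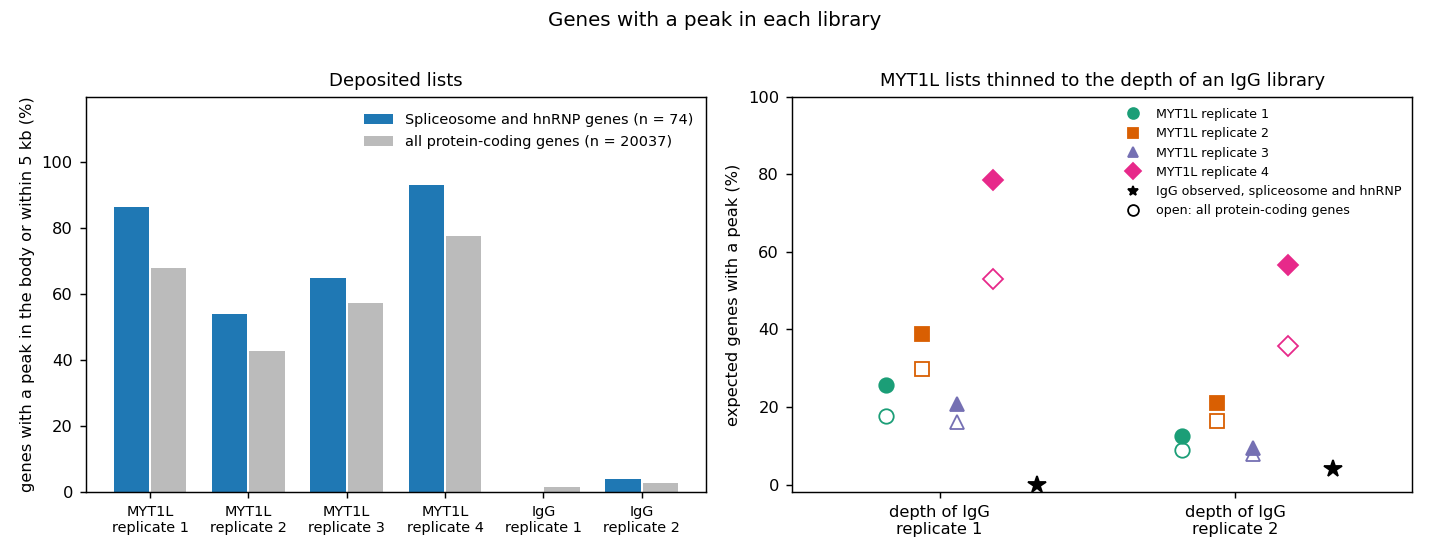
Left, percent of genes with a peak in the body or within 5 kb in each library, for the spliceosome and hnRNP genes and all protein-coding genes. Right, the predicted percent once each MYT1L list is thinned to the estimated background of either control; the thinned MYT1L values lie between 9.52% and 78.4%, above the observed 0% and 4.05% of IgG.

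Depth differed between antibodies, so each MYT1L list was reduced to the estimated depth of either control. At the depth of IgG replicate 1, 18.9, 28.7, 15.4 and 58.0 of the 74 genes were predicted to keep a peak in MYT1L replicates 1 to 4, against none observed with IgG. At that of IgG replicate 2 they came to 9.33, 15.6, 7.05 and 41.8, against 3 observed. The MYT1L numbers stayed above the IgG ones at matched estimated background, most of all in replicate 4. Only this background was matched, since read totals were not analysed here. The shares at the depth of IgG replicate 1 were 25.6%, 38.8%, 20.9% and 78.4%, against 17.6%, 29.8%, 16.1% and 52.9% of all genes. The corresponding shares of all genes at the depth of IgG replicate 2 were 8.91%, 16.4%, 7.98% and 35.8%, against 12.6%, 21.1%, 9.52% and 56.5% of the 74 genes. At the depth of MYT1L replicate 2, replicates 1, 3 and 4 were expected to have peaks at 38.2, 31.4 and 67.2 genes, against the 40 of replicate 2. The shares of all genes were 37.4%, 34.2% and 67.8%, against 43.0% observed in replicate 2, so replicate 4 was highest over all genes as well.

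As at other genes, most summits lay near the transcription start. The 49 genes held 57 reproducible regions, of which 46 had a summit within 1 kb of a listed start, 3 lay at an end of a gene without a listed start, 7 were downstream and 1 was in the body of HNRNPU. In the 46 start regions the summit of the highest-fold peak had a median position 41 bases after the start (range −765 to 424), and 34 (73.9%) were within 250 bases. Of the 46 summits, 24 were downstream of the start. With 1 region per gene, 73.3% of 45 genes had this summit within 250 bases, against 77.1% of 6583 genes of all kinds, and 51.1% had it downstream, against 62.0%. The summits of the libraries within the best-supported regions of the 49 genes spanned a median of 204 bp, from 33 to 1367 bp, and over 500 bp in 7 regions.

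**Figure D4:**
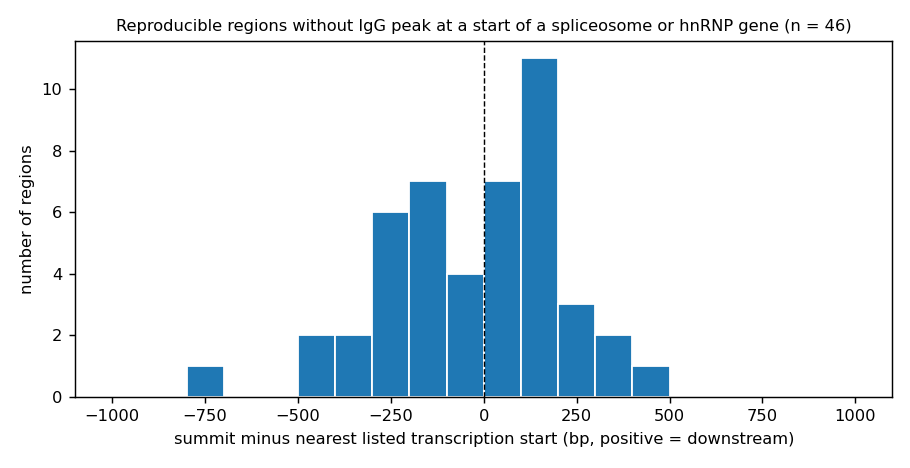
Distance of the summit of the highest-fold peak from the nearest listed transcription start (horizontal axis, bases; negative is upstream, the dashed line is the start) for the 46 reproducible regions at a start of a spliceosome or hnRNP gene, as the number of regions per bin (vertical axis). Of these summits, 34 lie within 250 bases of the start.

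Some regions lay near the start of a neighbouring gene. At 14 of the 49 regions at an own start or gene end, another protein-coding gene also starts within 1 kb of the highest-fold summit. Such a peak cannot be assigned to 1 gene. The corresponding share over all genes was not counted, so these numbers do not show whether such sharing was unusual. Of the 7 downstream regions, 6 have a highest-fold summit within 1 kb of the start of another gene. These genes are RILP (near PRPF8), TBC1D10A (SF3A1), PACS1 (SF3B2), SELENOS (SNRPA1), VEZF1 (SRSF1) and PNRC2 (SRSF10). The region downstream of U2AF1L4 has no listed start within 1 kb of that summit.

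Genes with and without a reproducible region overlapped in length. Of the 25 without one, only 5 had no MYT1L peak in any library. Genes with a reproducible region had a median length of 14247 bp and those without 16235 bp, and the list as a whole was shorter (14725 bp) than all genes (24115 bp). Among 5395 genes with lengths in the interquartile range of the list, 41.8% had a reproducible region and 33.8% had one at a start.

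Other spliceosome genes, a list of 103 further factors such as LSM proteins, RNA helicases and regulators, were also counted: 62 had a reproducible region (60.2%) and 56 had one at a start (54.4%). Other housekeeping families were also above the 48.0% of all genes. Proteasome genes had 31 of 48 (64.6%) and the same number at a start, cytosolic ribosomal protein genes 52 of 89 (58.4%) with 37 at a start (41.6%), and mitochondrial ribosomal protein genes 45 of 77 (58.4%) with 38 at a start (49.4%). The 66.2% and 64.9% of the spliceosome and hnRNP genes stand beside 64.6% for the proteasome genes. No difference between these lists was tested.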

How the data were processed

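Peak lists of 4 MYT1L and 2 IgG CUT&RUN libraries were analysed, 1 per library. Per the submitters' processing notes, MACS2 and the build hg38 were used; caller version, threshold, control library and aligner are not given in the sources used here. Each deposited peak has the authors' fold enrichment (a ratio), a deposited −log10 p and −log10 q, and a deposited score equal to 10 times the −log10 q in at least 99.99% of peaks. The lowest −log10 q was 2.002 to 2.011. Lists were called separately, so folds set side by side or averaged across libraries describe the lists and are not on a shared scale. The values were also used to estimate depth.

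Peaks on chromosomes 1 to 22, X and Y that shared at least 1 bp across the MYT1L lists were joined into regions, with no differences from bedtools 2.31.1. A gene's best-supported region had the most libraries, then the highest mean fold. Genes, starts and promoters came from RefSeq GRCh38.p14; for the 9 genes without a listed start, either gene end was used. Depth was recovered from MACS formulas, fold being (pileup + 1) / (background + 1); whole pileups matched at least 99.968% of peaks within 0.0002 of the −log10 p. Thinning was binomial and was tested on simulated data. Depth estimates assume those formulas, and fragment numbers are estimates.

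Named genes were the 10 with the highest mean fold among those shared by all 4 libraries without IgG, every gene with an IgG peak, every gene without a MYT1L peak, and a fixed list of well-known members; 1 of them is not reported here. Members and lists were chosen with earlier results of these data known. Alternatives varied the number of libraries, the −log10 q, the window, the overlap and IgG rules, depth, and each replicate left out. Python 3.11.15, numpy 2.4.6, pandas 2.3.3 and scipy 1.17.1 were used.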

Additional observations from a re-analysis of the deposited data

Results flagged for a closer look

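The values of the 4 MYT1L libraries were examined in 32 groups, namely the folds of the 30 genes with a best-supported region in every library and 2 counts of genes per library. In 4 groups (12.5%), all of them folds, replicate 4 stood apart from the other 3 libraries by Dixon's criterion for 4 values. The fold in replicate 4 was 7.95 at HNRNPF, 10.6 at HNRNPLL, 12.9 at SNRPA and 14.5 at SRSF8. Chance flags about 1 in 20 groups, and the 32 groups share the same 4 libraries, so the flags are not independent. Whether replicate 4 differs in cells, antibody reaction or library preparation was not tested.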

How the results depend on the processing

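The number of genes with a reproducible region (49) stayed within 1.5 times under 14 of 15 alternatives, and the number with one at a start (48) under 13 of 14. Asking for all 4 libraries lowered them to 28 and 26, and lowered the 62 other spliceosome genes to 34. Those other genes numbered 41 when every peak needed a −log10 q of 5 or more. The mean of 55.2 genes with a peak per MYT1L library became 30.2 and 18.4 at the depths of IgG replicates 1 and 2. Leaving out 1 library in turn gave 49 to 62 genes, 48 to 61 at a start, 50.7 to 60.3 per library, and 59 to 89 other spliceosome genes. With a MYT1L library left out, the rule was loosened to 2 of the remaining 3 libraries. The share of all genes with a reproducible region then rose from 48.0% to between 49.3% and 63.3%. These counts therefore do not show how the rule of 3 libraries fares with 1 removed. In all settings run, the share of the 74 genes exceeded that of all genes, by 7.56 to 33.3 percentage points. Ranked by −log10 q, 8 of the 10 highest genes were the same. No paired analysis was possible because the results are counts with no test, and the numbers of MYT1L and IgG libraries are not stated to mark shared cultures. Limits: peak lists hold no values below the threshold, so an unlisted gene may have signal; the IgG libraries were shallow; and a peak near 2 genes cannot be assigned.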

Other observations

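A TATAAA run on the gene's strand beginning 25 to 35 bases before a listed start was present at 3 of 65 genes (4.62%), against 4.08% of 15843 genes. The 3 were HNRNPAB, SRSF3 and SRSF7, where it began 29, 30 and 27 bases before the start, and each had a reproducible MYT1L region. This window was chosen after the positions were seen.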
